A study of Mus musculus with 6 samples.

Results

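The TAM receptors Tyro3, Axl and Mertk and their ligands Gas6 and Pros1 were followed in bulk RNA from mouse nucleus accumbens, the ventral part of the striatum. The members were taken by gene symbol, and all 5 are among the 54658 genes listed in each count file. All 5 also passed the expression filter that left 17563 genes for testing. The 3 Gas5 libraries came from tissue injected with a Herpes-simplex vector (p1005+) that expresses Gas5, a long noncoding RNA, with EGFP, and the 3 GFP libraries from tissue injected with that vector expressing just EGFP. All tissue came from male C57BL6 mice, adult at 8 weeks of age. The time between injection and dissection, the promoter that drives Gas5, the share of cells infected and the number of mice behind each sample are not stated in the sources used here. The p-values therefore measure the spread among these 6 samples, which may be partly technical.

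TAM receptors are single-pass receptor tyrosine kinases. Gas6 and protein S, the product of Pros1, bind phosphatidylserine on the surface of dying cells or shed membrane with one end and a TAM receptor with the other, and so link the cargo to the phagocyte. In rodent brain Mertk is carried by microglia and astrocytes and takes part in the removal of apoptotic cells and of synapses. Axl is low in resting microglia and rises in inflammatory states, and Tyro3 is mainly neuronal. Gas6 binds all receptors of the family, whereas protein S acts through Tyro3 and Mertk. Gas6 and the delivered RNA Gas5 share a name from growth arrest and are otherwise unrelated, since one encodes a secreted protein and the other is noncoding.

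Total counts lay between 32359052 and 56081575 per library. Gas5 itself stood at 22.6, 23.3 and 23.6 CPM (counts scaled to library size with TMM) in Gas5 A, B and C and at 18.6, 16.5 and 18.3 CPM in GFP A, B and C, a 1.30-fold difference with an edgeR adjusted p of 0.0163. The groups also differed in markers of cortical excitatory neurons, which are not cells of the accumbens. Their mean log2 CPM, called the cortical marker score here, was 1.997, 2.67 and 2.86 in Gas5 libraries, against 3.85, 4.34 and 4.39 in GFP libraries. Of 11 tested markers 10 leaned lower, and edgeR called 8 lower, where 3.96% of all tested genes were called lower. Without GFP B 4 of the 11 were called lower, and without GFP C also 4. Gas5 A stood apart from the other Gas5 libraries, with the lowest cortical marker score and the highest summed level of reactive astrocyte genes. In such tissue, fewer cells of a type and less RNA per cell cannot be told apart.

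Among the receptors, Axl and Mertk were higher in the Gas5 libraries and Tyro3 was not called. Axl rose 1.36-fold and Mertk 1.13-fold. The ligands leaned in opposite directions without passing the test, Pros1 at 1.35-fold and Gas6 at 0.840-fold. With edgeR, 2 of the 5 members were called, both higher, against 5.44% of all tested genes called in either direction (1.48% higher and 3.96% lower). At an unadjusted p under 0.05 there were 4 members, against 21.4% of all tested genes. The libraries of the groups did not overlap for 4 members, against 27.7% of tested genes. The median log2 fold change of the members was 0.18, and that of all tested genes 0.02.

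**Figure D1:**
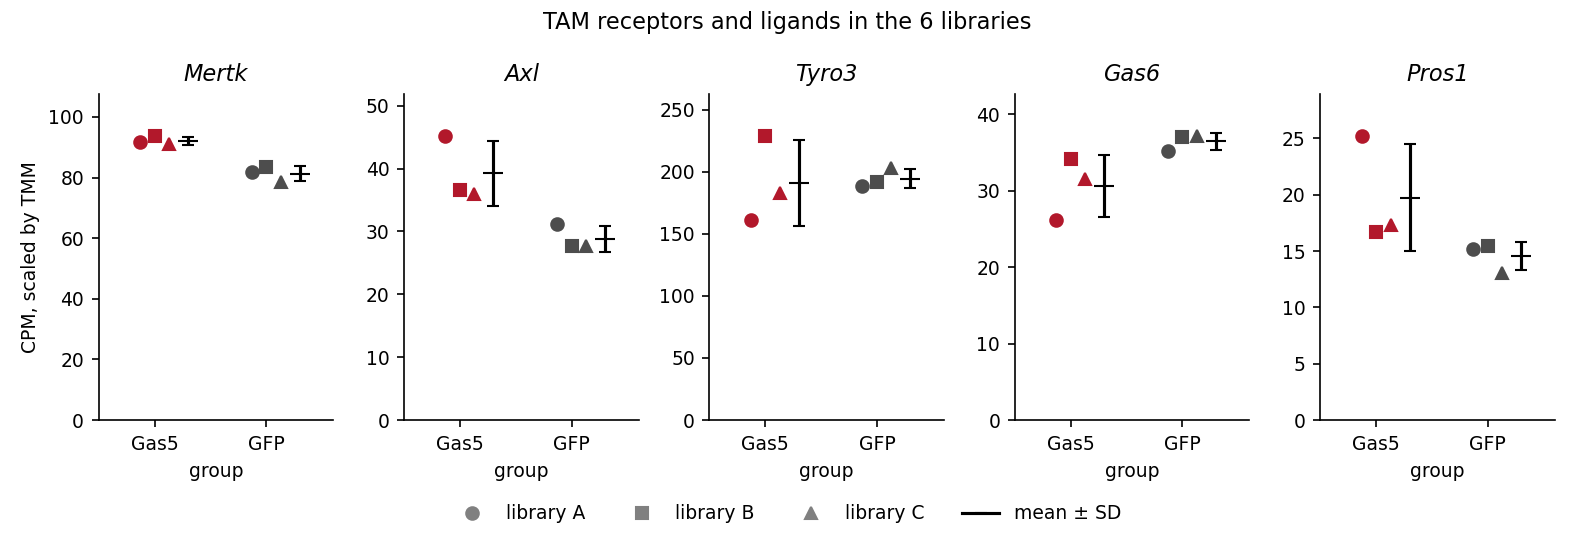
CPM (scaled by TMM, vertical axis from 0) of each member in the Gas5 and GFP groups, 1 symbol per library, with the group mean and SD in black (n = 3). Mertk, Axl and Pros1 lie higher in all 3 Gas5 libraries than in any GFP library, Gas6 lies lower in all 3, and Tyro3 overlaps.

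The members lie on 4 chromosomes of GRCm38, with Tyro3 and Mertk 8.88 Mb apart on chromosome 2. Tyro3 (ENSMUSG00000027298) spans 119797733 to 119818104 and Mertk (ENSMUSG00000014361) 128698956 to 128802894, both on the plus strand. Axl (ENSMUSG00000002602) lies on chromosome 7 from 25757273 to 25788705 on the minus strand. Gas6 (ENSMUSG00000031451) lies on chromosome 8 from 13465374 to 13494490 on the minus strand, and Pros1 (ENSMUSG00000022912) on chromosome 16 from 62854307 to 62929346 on the plus strand. The files count reads over the whole span of a gene, introns included. Exons of GENCODE M21 cover 30.4% of the span of Tyro3, 16.0% of Axl, 8.75% of Gas6, 5.45% of Pros1 and 4.17% of Mertk. Reads in a stretch shared with another listed gene are not counted, which takes 10.6% of the span of Gas6 (shared with Tmem255b) and 2.46% of that of Mertk, and none of the span of the other members.

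The 250 bases before the RefSeq start (GRCm38.p6) of the 3 receptor genes are shown because Axl and Mertk were called and Tyro3 was not. Each is read 5′ to 3′ on the strand of the gene, and capitals mark the GC box GGGCGG on either strand, the sequence bound by Sp1-type factors.
Mertk, chr2:128698665-128698914, plus strand: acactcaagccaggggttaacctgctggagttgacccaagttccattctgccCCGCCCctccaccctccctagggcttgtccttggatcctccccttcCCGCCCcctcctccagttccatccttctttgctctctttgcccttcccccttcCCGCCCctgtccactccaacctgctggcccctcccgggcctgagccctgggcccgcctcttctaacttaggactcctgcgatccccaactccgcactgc
Axl, chr7:25788734-25788983, minus strand: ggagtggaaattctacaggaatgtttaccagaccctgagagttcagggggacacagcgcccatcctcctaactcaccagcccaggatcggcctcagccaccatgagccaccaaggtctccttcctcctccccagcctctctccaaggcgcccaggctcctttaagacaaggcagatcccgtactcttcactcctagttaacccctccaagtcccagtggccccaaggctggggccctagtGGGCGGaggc
Tyro3, chr2:119799264-119799513, plus strand: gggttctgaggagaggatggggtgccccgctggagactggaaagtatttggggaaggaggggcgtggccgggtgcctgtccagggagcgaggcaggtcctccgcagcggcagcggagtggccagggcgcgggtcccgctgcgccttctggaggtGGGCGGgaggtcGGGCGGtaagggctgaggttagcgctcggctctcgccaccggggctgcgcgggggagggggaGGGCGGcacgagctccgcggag

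All 5 members had an entry in the RefSeq promoter table, and each window holds at least 1 GC box, found in 32.9% of 27025 promoter windows of the same length. The counts were 3 in Mertk, 1 in Axl, 3 in Tyro3, 4 in Gas6 and 5 in Pros1, where 2 overlap. The windows differ in base composition, with 24 CpG dinucleotides and 73.2% G and C in Tyro3, against 7 and 63.6% in Mertk, 5 and 60% in Axl, 10 and 54.8% in Gas6 and 15 and 64.4% in Pros1. The median window held 6 CpG and 52% G and C. The palindrome TTCNNNGAA, bound by STAT factors, occurred once, in Pros1, and in 7.18% of all windows. None of the 5 windows held the AP-1 motif TGANTCA (6.87% of windows), the interferon response element (3.04%), the E-box CACGTG (6.05%) or the LXR direct repeat (0.0111%), on either strand. For Tyro3 the RefSeq start lies inside the span that the files list.

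Mertk, the receptor by which microglia and astrocytes engulf apoptotic cells, had 91.8, 93.7 and 91.0 CPM in Gas5 A, B and C, against 81.8, 83.5 and 78.6 CPM in GFP A, B and C. The groups did not overlap, and within each group the libraries lay close together, at 92.2 CPM ± 1.35 for Gas5 and 81.3 CPM ± 2.49 for GFP (SD, n = 3 each). On the log2 scale the difference was 0.18 ± 0.043 (SE), with a 95% interval of 1.06-fold to 1.21-fold and an edgeR adjusted p of 0.0491. This call stood next to the threshold, at rank 951 by p when 955 genes were called. It was lost without any 1 of the 6 libraries, with adjusted p between 0.0775 and 0.195 and log2 fold changes between 0.16 and 0.20, and it was lost in 5 of 9 other settings. The exact permutation test on log2 CPM gave a 2-sided p of 0.1, which is the floor for 3 against 3 libraries, as it did for every member but Tyro3.

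Axl, a receptor that binds Gas6 and is raised in activated microglia, had 45.2, 36.5 and 36.0 CPM in the Gas5 libraries, against 31.3, 27.6 and 27.6 CPM in the GFP libraries. Each Gas5 library lay above each GFP library, and Gas5 A was the highest. On the log2 scale the difference was 0.44 ± 0.095 (SE), with a 95% interval of 1.17-fold to 1.58-fold and an edgeR adjusted p of 0.0357. Without Gas5 A it was 0.32 with an adjusted p of 0.0446. The call was lost without GFP B (0.41, adjusted p 0.151) and without GFP C (0.41, adjusted p 0.148), and was made in 8 of 9 other settings. The exception was the fit that included the cortical marker score, which put Axl at -0.20 ± 0.133 on the log2 scale (SE) and an adjusted p of 1.0.

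Tyro3, the receptor carried mainly by neurons, had 160.7, 229 and 183 CPM in the Gas5 libraries, against 188, 192 and 203 CPM in the GFP libraries. Gas5 A was the lowest and Gas5 B the highest of all 6, so the GFP range fell inside the Gas5 range. The SD was 34.7 CPM in the Gas5 group and 7.81 CPM in the GFP group around means of 191 and 194 CPM (n = 3 each). On the log2 scale the difference was -0.03 ± 0.113 (SE), and the adjusted p from edgeR was 0.916. Its 95% interval ran from 0.821-fold to 1.17-fold, which takes in the fold change of Mertk but not that of Axl. The exact permutation test gave p = 0.8, 2-sided. Leaving out single libraries moved the log2 fold change between -0.18 (without Gas5 B) and 0.08 (without Gas5 A).

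Gas6, the ligand of all 3 receptors, had 26.2, 34.1 and 31.5 CPM in the Gas5 libraries, against 35.2, 37.0 and 37.1 CPM in the GFP libraries. The groups did not overlap, though Gas5 B and GFP A lay close together, and Gas5 A was the lowest. On the log2 scale the difference was -0.25 ± 0.090 (SE), with a 95% interval of 0.729-fold to 0.968-fold, an unadjusted p of 0.0215 and an edgeR adjusted p of 0.149. No setting called it, and without Gas5 A the log2 fold change was -0.16.

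Pros1, which encodes protein S, an anticoagulant cofactor in plasma and a TAM ligand in tissue, had 25.2, 16.7 and 17.3 CPM in the Gas5 libraries, against 15.2, 15.4 and 13.1 CPM in the GFP libraries. The groups did not overlap, but Gas5 B and C lay near the GFP libraries and Gas5 A well above them. On the log2 scale the difference was 0.44 ± 0.153 (SE), with a 95% interval of 1.06-fold to 1.72-fold, an unadjusted p of 0.0201 and an edgeR adjusted p of 0.143. Without Gas5 A it was 0.21 with an adjusted p of 0.254. The ratio of Gas6 to Pros1 CPM was 1.04, 2.05 and 1.82 in Gas5 libraries, against 2.33, 2.40 and 2.84 in GFP libraries. That the ratios do not overlap follows from Gas6 being lower and Pros1 higher in all 3 Gas5 libraries, neither of them called. The sum of both ligands was 50.3 CPM ± 1.32 in the Gas5 group and 51.0 CPM ± 1.23 in the GFP group (SD, n = 3 each), values that overlap.

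Levels of different members were compared per kilobase. Per kilobase of countable span, Tyro3 was highest in every library, averaging 9.36 CPM per kilobase in Gas5 libraries, against 9.55 in GFP libraries. Pros1 was lowest in every library (0.263 in Gas5 libraries, against 0.194 in GFP libraries). Mertk was next in order but well above it (0.909 in Gas5 libraries, against 0.802 in GFP libraries). Gas6 and Axl were the neighbours whose order varied. Axl was above Gas6 in Gas5 A, at 1.44 against 1.01 CPM per kilobase, and below it in the other 5 libraries. With the same counts, intron reads included, divided by exon length, the order was Tyro3, Mertk, Gas6, Axl and Pros1 in all 6 libraries. Mertk stood at 21.3 in Gas5 libraries, against 18.8 in GFP libraries. That division raises genes with little exon in their span the most, and Mertk has the smallest exon share of the members (4.17%). The place of Mertk therefore depends on the length used. Of the summed receptor level per kilobase of span, Axl made up 14.1%, 8.73% and 10.4% in Gas5 libraries, against 9.01%, 7.90% and 7.56% in GFP libraries. Those shares overlap between the groups.

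**Figure D2:**
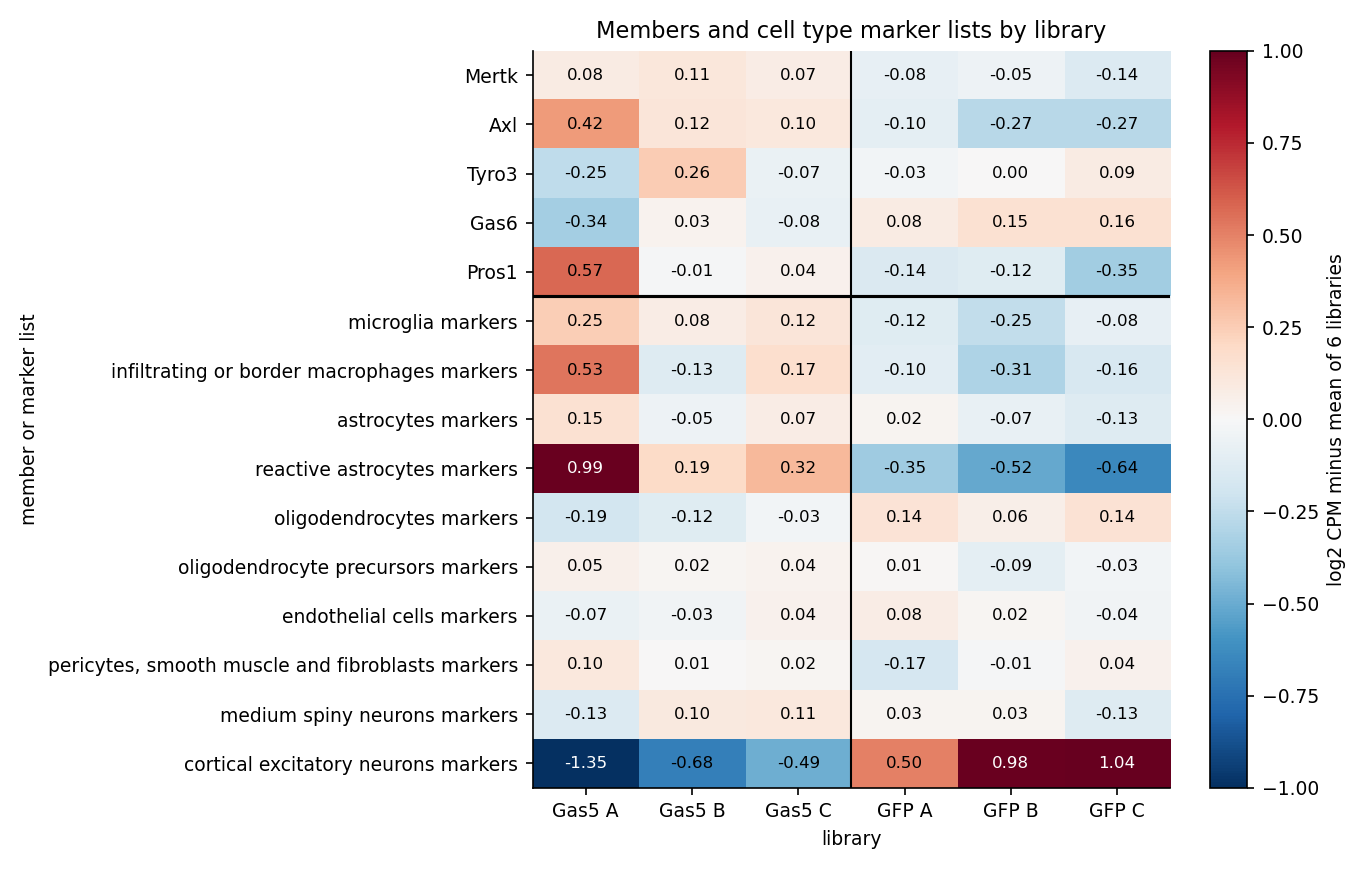
Deviation of log2 CPM from the mean over the 6 libraries for each member (top 5 rows) and for the mean of each cell type marker list (lower rows), with Gas5 libraries on the left and GFP libraries on the right; colours saturate at 1. Gas5 A carries the highest Axl and Pros1, the lowest Tyro3 and Gas6, the highest reactive astrocyte markers and the lowest cortical excitatory neuron markers.

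The marker lists of cell types that could carry the members are given by their counts, beside the 5.44% of all tested genes that edgeR called. Of 18 microglia markers 15 were tested, and all 15 leaned higher, with 0 called by edgeR in the main fit. Of the 15, 12 had an unadjusted p under 0.05, where 10.2% of all tested genes were higher and 11.2% lower. EdgeR called 4 higher under upper quartile scaling and 9 with no expression filter, against 1.8% and 2.29% of all tested genes. Robust dispersion gave 3 and the replicate letter as a block 5, against 1.42% and 2.9%. RLE scaling gave 0, as did the fits without Gas5 A, GFP A, GFP B or GFP C. DESeq2 called 7 of the 15 higher and limma-voom 1, where over all tested genes DESeq2 called 8.49% (2.82% higher) and limma-voom 5.02% (1.23% higher). Their summed level was 458 to 506 CPM in the Gas5 libraries and 373 to 425 CPM in the GFP libraries. C1qa, a complement subunit made by microglia, had 26.2 CPM ± 1.81 in the Gas5 group and 20.6 CPM ± 2.03 in the GFP group (SD, n = 3 each) with an edgeR adjusted p of 0.0502. Fcrls, a microglial surface gene, stood 0.35 higher on the log2 scale (adjusted p 0.0512). P2ry12, P2ry13 and Itgam were at 0 in every library, and at least 99.9% of their spans is shared with other listed genes and not counted.

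Relative to the mean of the microglia markers, Mertk stood at 1.97, 2.18 and 2.09 on the log2 scale in the Gas5 libraries and at 2.18, 2.34 and 2.08 in the GFP libraries. These values overlap, and their mean is 0.12 lower in the Gas5 group. Axl relative to the same markers stood at 0.958, 0.830 and 0.761 in the Gas5 libraries and at 0.801, 0.759 and 0.591 in the GFP libraries, which also overlap. Pros1 relative to them overlapped as well, whereas Gas6 was lower in all 3 Gas5 libraries, by 0.56 on the log2 scale in the mean. The overlap of Mertk was not particular to microglia. Mertk also overlapped relative to markers of astrocytes, oligodendrocyte precursors, medium spiny neurons, pericytes and infiltrating or border macrophages. It did not overlap relative to those of oligodendrocytes, endothelial cells, cortical excitatory neurons or reactive astrocytes. The part of microglia in the higher Mertk and Axl was not tested.

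Astrocyte markers had 1 of 12 tested members higher and 0 lower. Of the 12, 9 had positive log2 fold changes and 3 negative, with a median of 0.12. At an unadjusted p under 0.05 there were 4, all higher, where 10.2% of all tested genes were higher. Their summed levels were 3416 to 4077 CPM in the Gas5 libraries and 3808 to 4086 CPM in the GFP libraries. The mean log2 CPM of the astrocyte markers was 6.19, 5.99 and 6.11 in Gas5 libraries, against 6.06, 5.96 and 5.91 in GFP libraries. These means overlap. The 1 called was Aqp4, a water channel gene with 36.7% of its span shared, at 1.30-fold and an edgeR adjusted p of 0.0486. Its call was lost with limma-voom (0.0536), with robust dispersion (0.0545), with the cortical marker score in the fit (1.0) and, leaving out 1 library, without GFP B, GFP C, Gas5 A or Gas5 C. Gfap was at 0 in all libraries, with its span wholly shared with other genes. Relative to the mean of the astrocyte markers, Mertk overlapped between the groups. Axl was higher relative to them in all 3 Gas5 libraries, by 0.31 on the log2 scale in the mean. Axl was also higher in all 3 Gas5 libraries relative to markers of oligodendrocytes, their precursors, endothelial cells, pericytes, medium spiny neurons and cortical neurons. It overlapped relative to markers of microglia and of infiltrating or border macrophages. Reactive astrocyte genes had 4 of 9 tested members higher, with summed levels of 83.7 to 161 CPM in the Gas5 libraries and 41.1 to 50.9 CPM in the GFP libraries, and Gfap and Timp1 at 0. Lcn2, which encodes lipocalin, rose 3.75-fold, Serpina3n, a protease inhibitor, 3.77-fold, Vim, the filament protein vimentin, 3.18-fold and C3, a complement component, 4.92-fold, with edgeR adjusted p between 0.0100 and 0.0273. Of these genes edgeR called 0 of 10 tested without GFP B, 1 of 10 without GFP C and 1 of 9 with robust dispersion. Relative to the mean of the reactive astrocyte genes, all 5 members were lower in all 3 Gas5 libraries. The mean difference on the log2 scale was -0.57 for Axl and -0.83 for Mertk. The mean log2 CPM of the reactive astrocyte genes itself was 3.59, 2.79 and 2.92 in Gas5 libraries, against 2.24, 2.08 and 1.95 in GFP libraries. A gene that rises less than this list is lower relative to it, so these differences are not a result about the members. The part of reactive astrocyte genes in the members' differences was not tested.

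Endothelial markers had 1 of 12 lower and 0 higher, with summed levels of 268 to 287 CPM in the Gas5 libraries and 290 to 301 CPM in the GFP libraries and none at 0. Flt1, a VEGF receptor, was the 1 called, at 0.868-fold with an edgeR adjusted p of 0.0300. Oligodendrocyte markers leaned lower in all 15 tested, with a median log2 fold change of -0.25. Of the 15, 10 had an unadjusted p under 0.05, where 11.2% of all tested genes were lower. In 8 all Gas5 libraries lay below all GFP libraries, as they did in 13.9% of all tested genes. Of these 15, edgeR called 1 lower, DESeq2 4 and limma-voom 0. Over all tested genes edgeR called 3.96% lower, DESeq2 5.67% and limma-voom 3.79%. The 1 called by edgeR was Aspa, an aspartoacylase gene, at 0.779-fold (adjusted p 0.0467). The summed level of these markers was 1948 to 2413 CPM in the Gas5 libraries and 2463 to 2670 CPM in the GFP libraries. With edgeR 0 of 14 tested medium spiny neuron markers were called, with 2 at an unadjusted p under 0.05, against 21.4% of all tested genes. The summed level of these neuron markers was 5969 to 7482 CPM in the Gas5 libraries and 6821 to 7672 CPM in the GFP libraries. Pdyn, the dynorphin precursor of such neurons, had a log2 fold change of 0.37 (adjusted p 0.0551), and Bcl11b, their transcription factor, -0.16 (adjusted p 0.230). DESeq2 called 1 of these neuron markers and limma-voom 0. The calls of Flt1 and Aspa were lost without GFP B (adjusted p 0.143 for Flt1 and 0.137 for Aspa) and without GFP C (0.136 for Flt1 and 0.133 for Aspa). Each was also lost without Gas5 A, without Gas5 B and in the fit that included the cortical marker score, Flt1 also without GFP A, and Aspa also without Gas5 C, under upper quartile scaling (0.0543) and with limma-voom (0.0576).

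Markers of oligodendrocyte precursors had 0 of 9 called by edgeR, with 3 at an unadjusted p under 0.05, against 21.4% of all tested genes. DESeq2 called 1 of these precursor markers and limma-voom 0. Their smallest p belonged to Tnr, which encodes tenascin-R, with a log2 fold change of -0.25 (adjusted p 0.0533), and Cspg4, the NG2 proteoglycan gene, with 0.25 (0.0935). Gpr17 was at 0, with its span wholly shared. Markers of pericytes, smooth muscle and fibroblasts had 0 of 12 called by edgeR, with 2 at an unadjusted p under 0.05, 1 by DESeq2 and 0 by limma-voom. Among them, the collagen gene Col1a1 had a log2 fold change of 0.50 (adjusted p 0.0849), and the proteoglycan gene Dcn 0.56 (0.115).

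**Figure D3:**
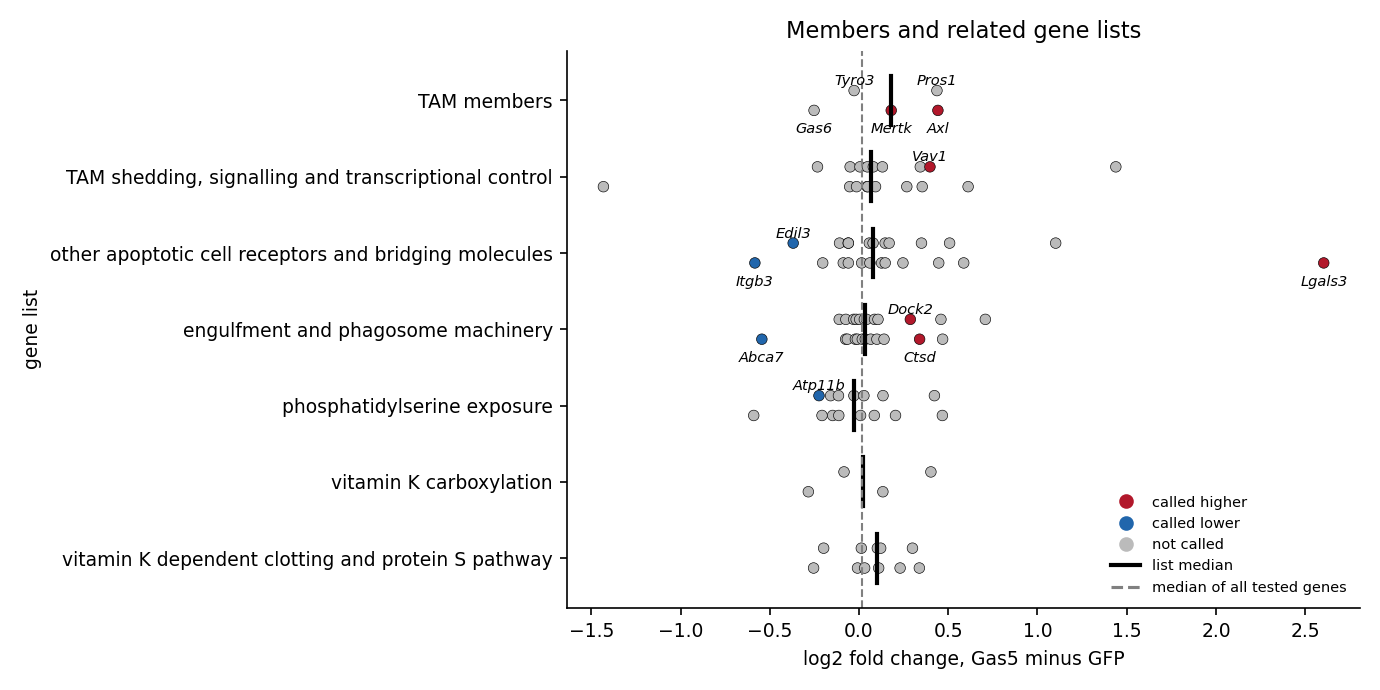
Log2 fold change, Gas5 minus GFP, of each tested gene of the TAM members and 6 related lists, coloured by the call of the edgeR test, with the list median as a bar and the median of all tested genes, 0.02, as a dashed line. Calls are few in each list, and most related genes lie near 0.

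Over 6 lists of genes around the TAM pathway, edgeR called 8 of 95 tested genes, 4 higher and 4 lower. That is 8.42%, near the 5.44% called over all tested genes, so the counts in these lists are not a result about them. The list of TAM shedding, signalling and transcriptional control genes held 18 tested members, of which 1 was called higher and 0 lower, with a median log2 fold change of 0.06. The 1 called was Vav1, a guanine nucleotide exchange factor that links such receptors to Rac in blood-derived cells and microglia. It had 15.7, 14.9 and 13.9 CPM in the Gas5 libraries and 11.2, 10.3 and 12.3 CPM in the GFP libraries, with a log2 fold change of 0.40 ± 0.083 (SE) and an edgeR adjusted p of 0.0331. Its call was lost without Gas5 A, Gas5 B or any GFP library, with adjusted p between 0.0583 and 0.137.

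Other apoptotic cell receptors and bridging molecules had 1 of 23 tested members higher and 2 lower, with a median of 0.08. Lgals3, the galectin that has been described as a further Mertk ligand, had 6.29, 1.496 and 1.96 CPM in the Gas5 libraries and 0.486, 0.648 and 0.472 CPM in the GFP libraries, a 6.08-fold difference with an adjusted p of 0.0398. Gas5 A was the highest, and the log2 fold change was 2.60 with it and 1.68 (adjusted p 0.0132) without it. The call was lost with limma-voom (adjusted p 0.103), with robust dispersion (0.0800) and without any 1 GFP library (0.101 to 0.153). Edil3, a secreted protein that bridges phosphatidylserine to integrins, was at 0.774-fold (adjusted p 0.0163), and Itgb3, the integrin subunit to which it and Mfge8 bind as part of αvβ3, was at 0.667-fold (adjusted p 0.0410). The Edil3 libraries stood at 157, 151 and 165 CPM in the Gas5 group and at 194, 197 and 219 CPM in the GFP group. Edil3 lost its call without GFP B (0.0677) or GFP C (0.0691), and Itgb3 without any 1 library (0.0589 to 0.153).

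Engulfment and phagosome machinery had 2 of 24 tested members higher and 1 lower, with a median of 0.03. Dock2, a Rac exchange factor of blood-derived cells and microglia, rose 1.22-fold (adjusted p 0.0371), and Ctsd, a lysosomal protease, 1.26-fold (adjusted p 0.0411). Of their spans 20.9% and 55.7% are shared with other listed genes and not counted. Abca7, a lipid transporter tied to phagocytosis, was lower in all 3 Gas5 libraries, at 10.2, 11.2 and 11.7 CPM, against 15.4, 15.6 and 17.2 CPM in the GFP libraries, with an adjusted p of 0.0107. The call of Abca7 was lost without GFP B (0.0518) or GFP C (0.0577). Those of Dock2 and Ctsd were lost without GFP B, GFP C, Gas5 A or Gas5 C, and that of Dock2 also without GFP A.

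Genes of phosphatidylserine exposure had 0 of 15 tested members higher and 1 lower, with a median of -0.03. The 1 called was Atp11b, a phospholipid flippase subunit, at 0.856-fold with an adjusted p of 0.0427, which was lost under upper quartile scaling (0.0545) and without each library except GFP A. Of 4 tested genes of vitamin K carboxylation, which prepares Gas6 and protein S for membrane binding, edgeR called 0, with 0 at an unadjusted p under 0.05, 0 by DESeq2 and 0 by limma-voom. Aifm2, a vitamin K reductase, had a log2 fold change of 0.40 (adjusted p 0.345) and Vkorc1l1, another, -0.08 (0.427). Vkorc1, also on the vitamin K list, was not tested, and 93.6% of its span is shared with another listed gene and not counted. Of 11 tested clotting and protein S pathway genes edgeR called 0, with 2 at an unadjusted p under 0.05. Those were the transmembrane Gla protein genes Prrg3, with a log2 fold change of -0.20 (adjusted p 0.0869), and Prrg1, with -0.25 (0.197).

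The genes whose pattern over the 6 libraries was most like that of a member were found by the root mean square difference of centred log2 CPM among 12252 tested genes, as a description with no test. For Mertk they were Srp14, of the signal recognition particle (difference 0.0137), and Cdk17, a kinase (0.0201), where the median gene differed by 0.129. For Axl they were Nuak2, a kinase (0.0357), and Cdc14a, a phosphatase (0.0387), of which Cdc14a was itself called higher with an edgeR adjusted p of 0.0412. Tyro3 lay nearest to Clybl (0.027) and Abcc4 (0.0342), both with Gas5 A lowest and Gas5 B highest. Gas6 lay nearest to Hecw2, a ubiquitin ligase (0.0201), and Lmtk2, a kinase (0.021). Pros1 lay nearest to Cfap46, a cilium gene (0.0401), and Gprin2 (0.0497), both highest in Gas5 A.

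**Figure D4:**
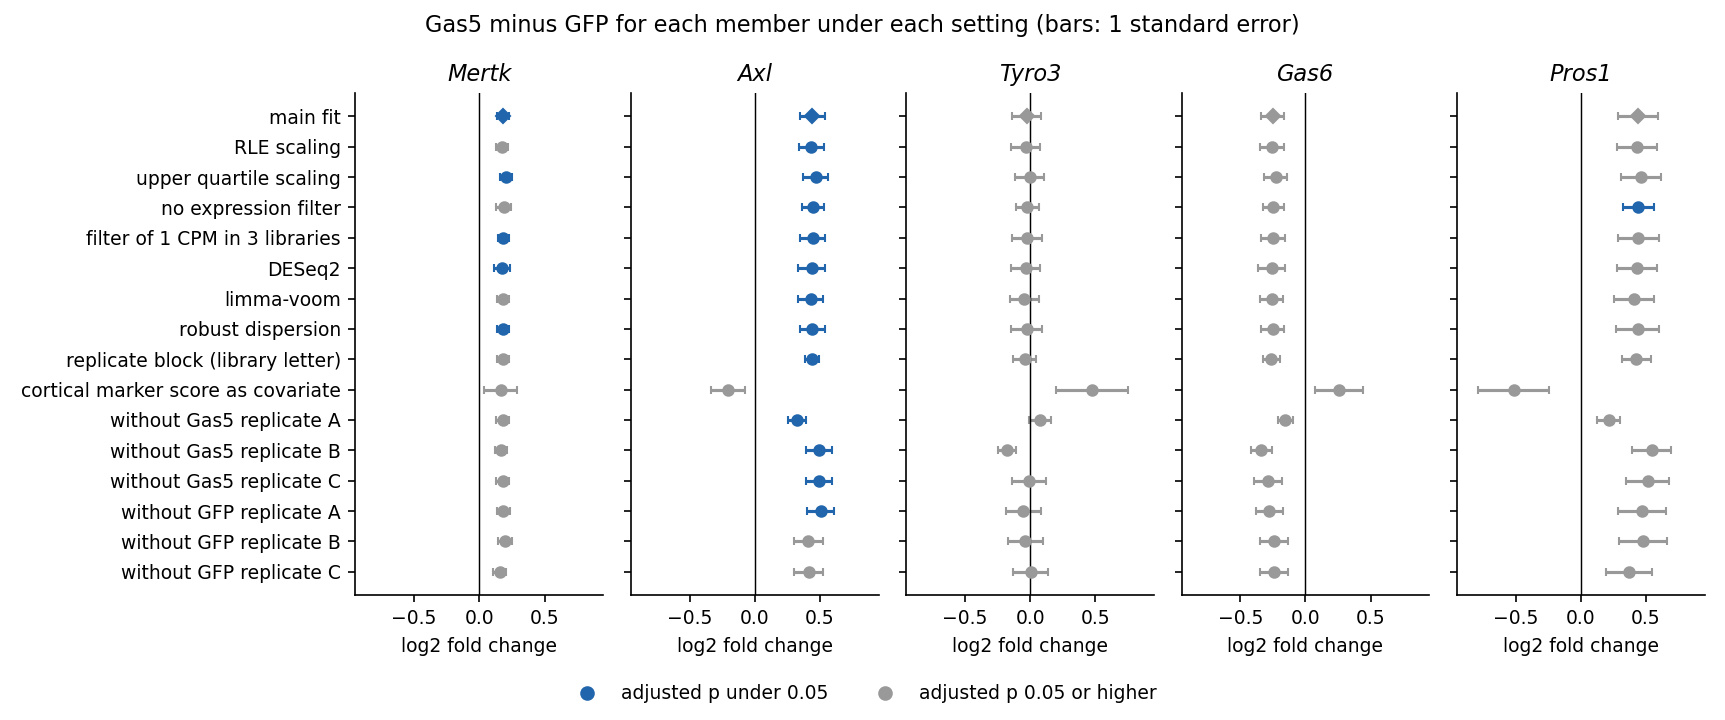
Log2 fold change, Gas5 minus GFP, of each member in the main fit (diamond) and under each alternative (circles), with bars of 1 standard error and blue for an adjusted p under 0.05. Axl stays near 0.44 in all settings that keep 6 libraries except the fit that includes the cortical marker score (-0.20), and Mertk stays between 0.16 and 0.20.

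When edgeR was fitted with the cortical marker score added, it called 0 genes, members included, and 395 genes had an unadjusted p under 0.05. Mertk kept its direction there, at a log2 fold change of 0.16 with a standard error of 0.126, and Axl, Tyro3, Gas6 and Pros1 changed sign. The score does not overlap between the groups, at 2.51 ± 0.454 in the Gas5 libraries and 4.19 ± 0.298 in the GFP libraries (SD, n = 3 each), so the group and the score cannot be told apart for the members.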

How the data were processed

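Total RNA was depleted of ribosomal RNA and made into strand-marking libraries, per the labels' protocols. The deposited files hold whole-number counts per gene. Per the submitters' processing notes, the build was GRCm38.p6 and the tools were featureCounts 1.5.0-p3, the aligner STAR 2.7.0, the trimmer Trim Galore 0.4.4, bcl2fastq 1.8.4 and, in an earlier release, edgeR 3.20.9. In every file the gene length equals the gene span, introns included, and 12811 genes whose span is wholly shared with other listed genes hold no count. The strand setting of the counting is not given in the sources used here. That sharing was measured over genes on either strand, so the absent counts are as in counting that ignores strand. Annotation was taken from GENCODE M21, which matched 98.63% of listed genes by position and strand.

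The 3 Gas5 and 3 GFP libraries were compared with edgeR 4.0.16 in R 4.3.3 (TMM scaling, filterByExpr, quasi-likelihood F-test, Benjamini-Hochberg adjustment over all 17563 tested genes, threshold 0.05). Standard errors were derived from the F statistic. CPM values are TMM-scaled, and log2 CPM values carry a pseudocount of 0.5. DESeq2 1.42.0, limma-voom (limma 3.58.1), other scalings and filters, and leaving out each library were alternatives. The script was tested on simulated data. No library of a group was a copy of another, since pairs within a group gave a chi-square per degree of freedom of 4.816 to 23.29.

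The members, gene lists and tests were chosen with earlier results of these data known. Besides the members, the text names from each list the genes past the threshold or, where none passed, the 2 of smallest p, and for each member the 2 genes of most similar pattern. Cortical neuron markers are given as a mean log2 CPM, with no single gene named. One marker gene is not reported here.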

Additional observations from a re-analysis of the deposited data

How the results depend on the processing

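In the fit that included the cortical marker score, log2 fold changes were 0.16 for Mertk (adjusted p 1.0), -0.20 for Axl, 0.47 for Tyro3, 0.26 for Gas6 and -0.52 for Pros1, and 0 genes were called higher and 0 lower, against 260 higher and 695 lower in the fit without it. The counts of genes called higher were 656 with no expression filter and 495 with DESeq2. Leaving out 1 library gave 4 to 251 genes called higher and 101 to 611 called lower. It was without GFP B that 4 were called higher and 111 lower, without GFP C that 6 were called higher and 101 lower, and without Gas5 A that 112 were called higher. Mertk missed the threshold at 0.17 with RLE scaling (adjusted p 0.0553), 0.19 with no filter (0.0559) and 0.18 with limma-voom (0.0536), and lay between 0.16 and 0.20 without single libraries. Pros1 passed with no filter (0.44, adjusted p 0.0357). Without single libraries Axl ranged from 0.32 to 0.51, Gas6 from -0.34 to -0.16, Pros1 from 0.21 to 0.54 and Tyro3 from -0.18 to 0.08, changing sign without Gas5 A (0.0756) and without GFP C (0.0047). The cause of these changes was not tested. Scaling by library totals moved the Mertk ratio of group means to 1.18, from 1.13 with TMM.

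The groups share the replicate letters A, B and C. Deviations of same-letter libraries correlated at 0.231 for A, 0.239 for B and -0.0912 for C over 2000 genes. Those of libraries with different letters correlated at -0.292 to 0.0552, so A and B lay above all of them and C did not. The letters were not taken to pair the libraries in the main fit, and whether they do is not settled by these values. With the letter as a replicate block, 510 genes were called higher and 928 lower, and Mertk stood at 0.18 with an adjusted p of 0.0502. Axl stood there at 0.44 with an edgeR adjusted p of 0.00441. Gas6 stood at -0.26 (adjusted p 0.0625), Pros1 at 0.43 (0.0666) and Tyro3 at -0.04 (0.827). Under that block edgeR called 11 of 29 interferon response genes higher, against 0 without it, where it called 2.9% of all tested genes higher.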

Other observations

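All 29 tested genes of the interferon response list had positive log2 fold changes, with a median of 0.47, against 0.02 for all tested genes. Without single libraries that median lay between 0.211 (without GFP B) and 0.646 (without GFP A), and it was 0.289 without Gas5 A. In the fit that included the cortical marker score it was -0.594. Of the 29, 0 were called by edgeR, 0 by DESeq2 and 0 by limma-voom. At an unadjusted p under 0.05 there were 10, where 10.2% of all tested genes were higher. With no expression filter edgeR called 4 of the 29 higher, against 2.29% of all genes in that fit. The summed level of the interferon genes was 1420, 1002 and 1100 CPM in the Gas5 libraries and 1022, 542 and 1000.3 CPM in the GFP libraries, values that overlap. Irf7, an interferon-induced transcription factor, stood at 53.6, 35.8 and 37.5 CPM in the Gas5 libraries and at 30.5, 15.9 and 28.3 CPM in the GFP libraries (edgeR adjusted p 0.106). Oasl2, an interferon-induced antiviral gene, had a log2 fold change of 0.77 (adjusted p 0.127).

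Markers of infiltrating or border macrophages had 0 of 8 tested genes called by edgeR, 2 by DESeq2 and 0 by limma-voom. Of the 8, 2 had an unadjusted p under 0.05, against 21.4% of all tested genes. The summed level of the macrophage markers was 28.3 to 40.8 CPM in the Gas5 libraries and 23.9 to 31.1 CPM in the GFP libraries. Ly6c2, a monocyte surface gene, stood at 4.64, 0.818 and 1.42 CPM in the Gas5 libraries and at 0.468, 0.156 and 0.535 CPM in the GFP libraries (edgeR adjusted p 0.0722). Ms4a7, a macrophage membrane gene, overlapped between the groups (adjusted p 0.141).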
